A study of Mus musculus with 15 samples.

Results

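The 3 Sertad genes measured here (Sertad1, Sertad2 and Sertad3), the kinase genes Cdk4 and Cdk6, and the D-type cyclin genes Ccnd2 and Ccnd3 were followed in the blood of mice given ABBV-075. ABBV-075 (mivebresib) is an inhibitor of BET proteins, the bromodomain proteins that bind acetylated histones and help start transcription. All probe sets annotated with 1 of these 7 symbols alone were taken, which gave 21 probe sets for 7 of the 18193 gene symbols on the array. Sertad1 had 1 probe set, Sertad2 and Sertad3 had 2 each, Cdk4, Cdk6 and Ccnd3 had 3 each, and Ccnd2 had 7. Sertad1 was chosen by its measured difference between dosed and vehicle mice in these same arrays, so its values are given as a description and carry no test. The other 6 genes were added by name.

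The 15 samples were total RNA from mouse whole blood, in 3 groups of 5 mice dosed with vehicle, with 1 mg/kg ABBV-075 or with 5 mg/kg ABBV-075, and all sampled 6 h after dosing. Each sample was hybridised to 1 Affymetrix array. The labels state no strain, age, sex, vehicle formula or tumour for these animals, and every group shared the same blood source and the same time point. The labels describe mice dosed per group but do not name individual animals or say whether blood was pooled. Each sample is called a mouse below. The p-values below set differences between groups against the variation between samples, and the permutation tests use only the samples of the groups compared.

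SERTAD1 is a small nuclear protein that binds the kinase CDK4 and also acts as a coactivator for E2F-DP transcription factors. CDK4 and CDK6 are the kinases that D-type cyclins activate, and the active pairs phosphorylate the retinoblastoma protein and so release E2F factors to switch on genes for S phase. In blood-forming tissue cyclin D2, cyclin D3 and CDK6 are known for their part in the growth of lymphoid and myeloid precursors, whereas most circulating leukocytes are not dividing.

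The values below are intensities after quantile normalisation, and differences are on the log2 scale after intensities under a floor of 16 were raised to 16. Of the 21 probe sets, 17 lay above the floor on at least 5 arrays and entered the fit, and all 7 genes kept at least 1. The other 4, Cdk6 1460291_at, Ccnd2 1416123_at, Ccnd2 1416124_at and Ccnd3 1444323_at, were at or under the floor on all 15 arrays and give no difference.

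The deposited arrays were not scaled alike, with medians from 3.61 to 25.4, and 52.7% of normalised values lay at or under the floor. Correlations between arrays ran from 0.703 to 0.923 and no 2 columns were identical. The 18S ribosomal control averaged 11.2 ± 0.94 (log2, SD, n = 5) in vehicle mice, and 9.97 ± 0.43 and 9.42 ± 0.42 in mice given 1 and 5 mg/kg. The mean of the 9 tested markers of 10 listed for monocytes ran from 7.20 to 7.88 in vehicle mice, and from 6.48 to 7.24 and from 6.46 to 6.73 at the lower and higher dose. The mean of 7 tested B-cell markers ran from 6.39 to 7.48, from 5.90 to 7.13 and from 7.12 to 7.88 in the same order. In the same order, T-cell markers (5 of 8 tested) averaged 7.17 ± 0.27, 7.03 ± 0.52 and 7.63 ± 0.41, NK-cell markers (5 of 6) 6.82 ± 0.43, 6.16 ± 0.44 and 6.42 ± 0.45, and neutrophil markers (8 of 9) 7.0 ± 0.30, 6.37 ± 0.48 and 6.52 ± 0.59. Platelet markers (5 of 6) averaged 10.05 ± 0.70, 9.62 ± 0.22 and 9.69 ± 0.46, and erythroid markers (4 of 6) 10.69 ± 0.31, 10.59 ± 0.45 and 10.36 ± 0.39. Of the cycling-cell markers, 3 of 6 were tested, with Birc5, Cdk1 and Ccnb1 left out, and they averaged 6.02 ± 0.58, 5.60 ± 0.44 and 5.75 ± 0.58 in the same order. In bulk blood, fewer cells of a type and less RNA per cell cannot be told apart.

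Sertad1 (Entrez Gene 55942) and Sertad3 lie next to each other among the protein-coding genes of chromosome 7, on the same strand, with 1 long non-coding RNA gene, Gm38972, between them in the annotation. Their promoters are shown because the neighbours gave such different values in these arrays, though Sertad1 was chosen by its difference. Whether the promoters bear on those values was not tested. Each line holds the 250 bases before the annotated start, 5′ to 3′, on the plus strand, from RefSeq on GRCm38.p6, at chr7:27486703-27486952 for Sertad1 and chr7:27473590-27473839 for Sertad3. Capitals mark GC boxes (GGGCGG or its complement), the E2F core GCGGGAA and CCAAT boxes.
Sertad1 promoter: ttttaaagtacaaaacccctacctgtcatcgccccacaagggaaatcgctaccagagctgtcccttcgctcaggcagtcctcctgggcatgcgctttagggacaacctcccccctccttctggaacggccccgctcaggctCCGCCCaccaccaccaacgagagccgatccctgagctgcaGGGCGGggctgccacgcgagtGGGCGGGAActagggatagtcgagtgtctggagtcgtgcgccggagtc
Sertad3 promoter: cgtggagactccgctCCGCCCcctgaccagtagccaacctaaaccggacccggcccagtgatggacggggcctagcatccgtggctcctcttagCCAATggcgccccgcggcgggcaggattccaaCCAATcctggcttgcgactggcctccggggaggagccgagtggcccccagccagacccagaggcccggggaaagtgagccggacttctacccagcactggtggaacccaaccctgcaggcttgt

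The Sertad1 window was 62.8% G or C and held 3 GC boxes, which began 109, 69 and 48 bases before the start, the first of them on the minus strand. It also held 1 E2F core, which began 46 bases before the start and overlapped the nearest GC box. That core occurred in 3.82% of the 32851 RefSeq promoter windows of the same length, and the GC box in 32.7%. The Sertad3 window was 67.2% G or C and held 2 CCAAT boxes, which began 156 and 124 bases before the start, and 1 GC box on the minus strand at 235. The CCAAT box occurred in 33.8% of all windows. Both strands were searched for those 3 motifs and for the E-box CACGTG, the TATA box TATAAA and the core of the cyclic AMP response element TGACG, which occurred in 6.02%, 12.4% and 17.8% of windows, and neither promoter held any of the last 3 as spelled. Of the 7 genes, 6 matched the promoter table. The Cdk4 window held 4 E-boxes, beginning 172, 118, 98 and 11 bases before the start, and the Cdk6 window held 1. Among the windows of these 6 genes the E2F core was found in that of Sertad1 alone. Such matches describe letters in these windows and say nothing of binding.

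Sertad1 signal was lowest in vehicle mice, higher on average in mice given 1 mg/kg and highest in those given 5 mg/kg. Its 1 probe set, 1417406_at, gave 16.3, 12.0, 27.6, 22.8 and 43.3 in the 5 vehicle mice, where the value of 12.0 lay under the floor. At 1 mg/kg it gave 47.8, 99.9, 46.0, 62.2 and 33.5. At 5 mg/kg it gave 124.9, 128.0, 139.0, 175.7 and 180.6. All 5 mice at 5 mg/kg were above every other mouse, whereas the 1 mg/kg and vehicle groups overlapped, since vehicle replicate 5 at 43.3 exceeded 1 mg/kg replicate 5 at 33.5. Before normalisation the doses overlapped: 5 mg/kg replicate 3 gave 72.5, under 1 mg/kg replicates 2 and 4 at 112.6 and 115.1. On the array with the lowest median, 1 mg/kg replicate 1, the value was 12.8 before normalisation. Every 5 mg/kg value still lay above the highest vehicle value of 39.8.

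The group means of Sertad1 were 4.55 ± 0.60 (log2, SD, n = 5) for vehicle, and 5.75 ± 0.59 and 7.21 ± 0.25 for the lower and higher dose. The higher dose was 2.66 above vehicle (SE 0.31, 95% interval 2.01 to 3.31), which is 6.31-fold, and ranked 2 among 24273 tested probe sets by signed difference. The lower dose was 1.20 above vehicle (0.55 to 1.85), 2.30-fold, and ranked 116. The step from 1 to 5 mg/kg was 1.45 (0.80 to 2.10), 2.74-fold. Because Sertad1 was chosen by its difference, these intervals and ranks are not corrected for that choice and are not tests. Its lack of overlap has the same limit. As background, 1.29% of all tested probe sets had every 5 mg/kg value above every vehicle value, 1.03% had every 5 mg/kg value above every 1 mg/kg value, and 0.19% had every 1 mg/kg value above every vehicle value. Because vehicle replicate 2 was under the floor, the size of the vehicle differences depends on it: with a floor of 32 they were 2.12 at 5 mg/kg and 0.67 at 1 mg/kg.

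**Figure D1:**
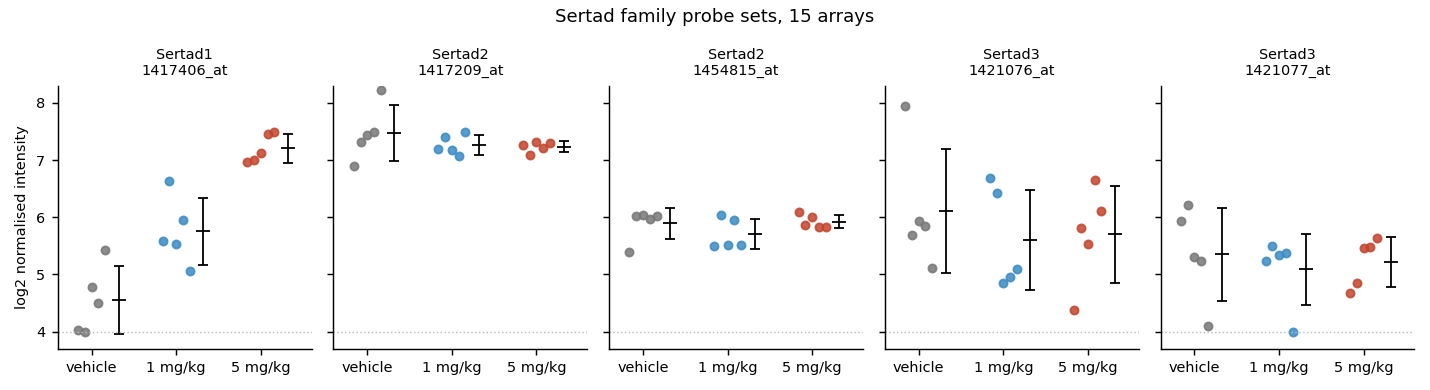
Log2 normalised intensity (vertical axis) of the 5 Sertad probe sets in each of the 15 arrays, by dose group, with 1 point per mouse, a bar for the mean and whiskers of 1 SD; the dotted line is the floor of 16. Sertad1 means step from 4.55 to 5.75 to 7.21, while the Sertad2 and Sertad3 groups overlap at every dose.

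The 18S signal and the monocyte and erythroid marker means were lower in the groups where Sertad1 was higher. The neutrophil, NK-cell, platelet and cycling-cell means were lower than with vehicle at both doses. The B-cell and T-cell means were higher than with vehicle at 5 mg/kg. With 18S signal as a covariate the Sertad1 difference from vehicle was 2.03 at 5 mg/kg and 0.78 at 1 mg/kg. The 18S signal (log2) was at least 10.24 in every vehicle mouse and at most 9.88 in every 5 mg/kg mouse. This fit therefore cannot separate 18S signal from the higher dose. The part of monocyte or other cell numbers in the Sertad1 values was not tested. The range over all processing choices tried was 2.03 to 2.88 at 5 mg/kg and 0.67 to 1.43 at 1 mg/kg, and the sign was the same in each.

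**Figure D2:**
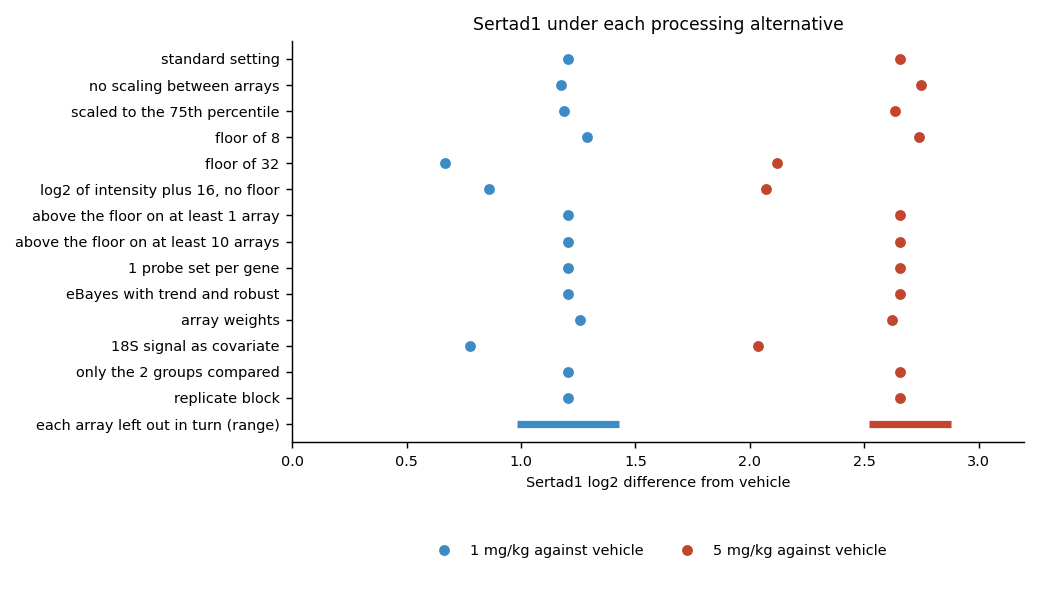
Log2 difference of Sertad1 from vehicle (horizontal axis) under each processing choice (rows), with blue for 1 mg/kg, red for 5 mg/kg and bars for the range over the 15 fits that each left out 1 array. All points lie above 0, and the lowest at 5 mg/kg is 2.03 with 18S signal as a covariate, a fit that cannot separate 18S signal from the higher dose.

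The genes whose signal followed Sertad1 most closely over the 15 arrays were Tubb4b (a beta-tubulin), Mknk2 (a kinase of the translation factor eIF4E), H2ax (a histone H2A variant), Hexim1 (the P-TEFb inhibitor) and Tmx4 (a thioredoxin-related membrane protein). Their Pearson r over 15 arrays was 0.91, 0.88, 0.87, 0.86 and 0.86. Between 5 mg/kg and vehicle these genes differed by 0.79, 0.66, 1.46, 1.86 and 0.72 on the log2 scale, in the same order. After the group means were taken out, r with Sertad1 was 0.61 for Tubb4b and between 0.23 and 0.32 for the other 4. Most of the likeness thus lay in differences between dose groups, which the choice of Sertad1 by such a difference favoured beforehand. These correlations are the highest of many, and they describe arrays that share a normalisation and a dose order.

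No probe set of the other members passed the test between 5 mg/kg and vehicle. Over the 16 tested probe sets of the 6 other genes, limma called 0 at an adjusted p of 0.05, against 0.136% of all tested probe sets, and 1 had an unadjusted p under 0.05, where the share over all was 7.96%. Of these 16, 7 were higher, where 49.2% of all were, and 9 lower, with a median of -0.05 and a range of -0.63 to 0.59, beside a median of -0.0066 over all probe sets. Benjamini-Hochberg adjusted p-values from limma ran from 0.590 to 0.996.

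At 1 mg/kg against vehicle limma called 0 of the 16, against 0.00824% of all probe sets, and 0 had an unadjusted p under 0.05, against 5.8%. Of the 16, 15 were lower and 1 higher, where 47.3% of all were higher, with a median of -0.17 beside -0.02 over all probe sets, and 5 of the 16 come from Ccnd2 alone. At that dose 5 of 5 NK-cell, 5 of 5 platelet, 7 of 8 neutrophil and 8 of 9 monocyte markers were also lower than with vehicle. So were 4 of 7 B-cell, 4 of 5 T-cell, 3 of 4 erythroid and 3 of 3 cycling-cell markers. The part of these cell types in the members' values was not tested. Between 5 and 1 mg/kg limma called 0 of the 16, against 0% of all, and again 0 had an unadjusted p under 0.05, against 8.66%. Of the 16, 13 were higher at 5 mg/kg and 3 lower, where 50% of all were higher, with a median of 0.098. The 3 comparisons share their groups, so the 1 mg/kg values enter both of these counts.

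**Figure D3:**
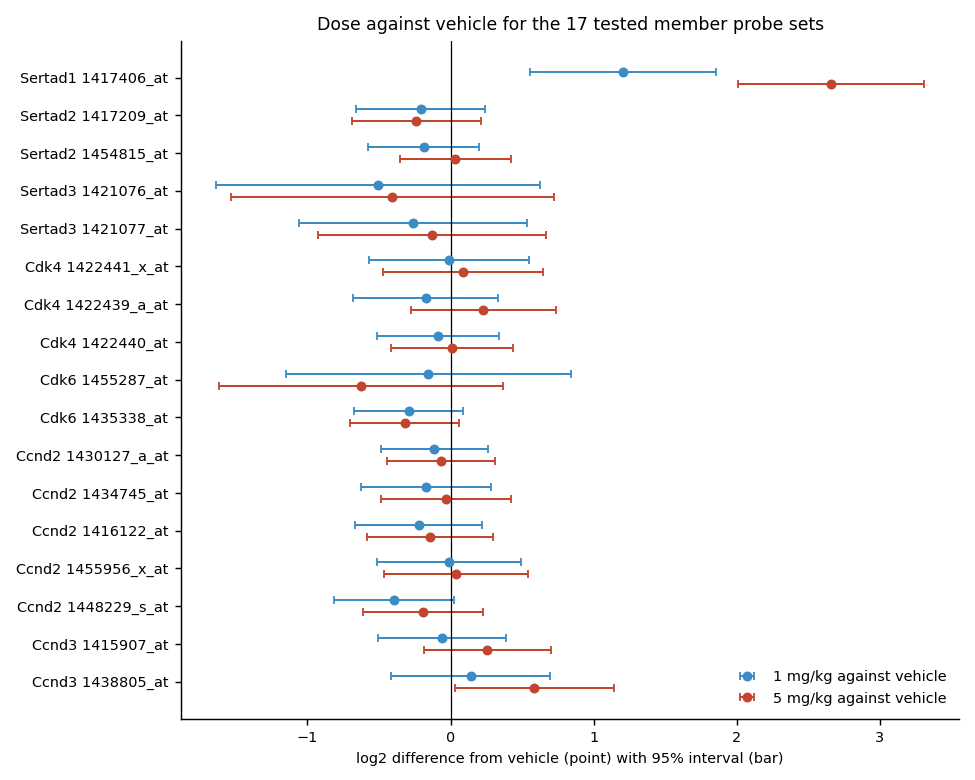
Log2 difference from vehicle (horizontal axis) of the 17 tested probe sets (rows) at 1 mg/kg (blue) and 5 mg/kg (red), with bars for the 95% interval from the fit over all probe sets. Sertad1 stands at 1.20 and 2.66, and its bars are not corrected for its choice by this difference. Among the other 16 the interval leaves out 0 only for Ccnd3 1438805_at at 5 mg/kg, before adjustment.

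Sertad2 encodes TRIP-Br2, a paralogue with the same SERTA domain that is also a coactivator of E2F. Its probe set 1417209_at gave 118.6, 158.6, 173.1, 180.5 and 300.7 with vehicle, 145.9, 168.7, 144.8, 134.0 and 178.8 at 1 mg/kg, and 154.3, 136.0, 158.6, 147.3 and 157.3 at 5 mg/kg. The 5 mg/kg mice lay within the vehicle range, with an SD of 0.092 against 0.49. The difference from vehicle was -0.24 ± 0.21 (SE) at 5 mg/kg (95% interval -0.69 to 0.21, limma adjusted p = 0.854) and -0.21 at 1 mg/kg. The second probe set, 1454815_at, differed by 0.033 ± 0.18 at 5 mg/kg and by -0.19 at 1 mg/kg, and ran from 42.2 to 68.1 over all 15 mice.

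Sertad3 encodes a protein of the same family, known as a binding partner of replication protein A. Its probe set 1421076_at gave 247.7, 51.3, 61.2, 57.2 and 34.7 with vehicle, 102.9, 85.8, 28.9, 30.9 and 34.0 at 1 mg/kg, and 20.7, 56.3, 46.5, 100.7 and 69.4 at 5 mg/kg. Vehicle replicate 1 stood far above the other vehicle mice, and the 3 groups overlapped widely. The difference at 5 mg/kg was -0.41 ± 0.53 (95% interval -1.54 to 0.73, limma adjusted p = 0.920), and without vehicle replicate 1 it was 0.055. The second probe set, 1421077_at, differed by -0.13 ± 0.38 at 5 mg/kg and by -0.27 at 1 mg/kg.

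Cdk4 encodes the kinase to which SERTAD1 binds. Its probe set 1422441_x_at gave 92.8, 104.6, 44.6, 51.2 and 52.7 with vehicle, 67.2, 94.1, 60.3, 54.9 and 54.0 at 1 mg/kg, and 58.0, 83.7, 56.3, 62.8 and 91.3 at 5 mg/kg. The groups overlapped, and the differences from vehicle were 0.085 ± 0.26 at 5 mg/kg and -0.0098 ± 0.26 at 1 mg/kg. A second set, 1422439_a_at, differed by 0.23 ± 0.24 at 5 mg/kg (95% interval -0.28 to 0.73, limma adjusted p = 0.887) and by -0.17 at 1 mg/kg. The third, 1422440_at, was at the floor in 3 of 5 vehicle mice, in 3 of 5 at 1 mg/kg and in 2 of 5 at 5 mg/kg, and can show little. Over the 15 arrays the 3 Cdk4 probe sets correlated with one another at r from 0.096 to 0.39.

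Cdk6 encodes the second D-cyclin kinase. Its probe set 1455287_at gave 60.7, 35.9, 112.1, 104.4 and 95.2 with vehicle, 183.5, 78.0, 50.4, 61.2 and 32.3 at 1 mg/kg, and 25.7, 37.4, 115.2, 61.4 and 41.0 at 5 mg/kg. Of the 5 mg/kg mice 4 lay under the vehicle median of 95.2, but mouse 3 was above every vehicle mouse. The difference was -0.63 ± 0.47 (95% interval -1.62 to 0.37, limma adjusted p = 0.817) at 5 mg/kg and -0.15 ± 0.47 at 1 mg/kg. The second set, 1435338_at, was above the floor in 3 of 5 vehicle mice, in 2 of 5 at 1 mg/kg and in 0 of 5 at 5 mg/kg. With values raised to the floor it differed by -0.32 ± 0.18 at 5 mg/kg (95% interval -0.70 to 0.061, limma adjusted p = 0.719), on vehicle intensities that reached only 30.4. The pair correlated at r of 0.23 over 15 arrays.

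The kinases were also compared within each array, as the log2 value of Cdk6 1455287_at minus that of Cdk4 1422441_x_at. From vehicle to 5 mg/kg that difference moved by -0.71 (SE 0.71, exact two-sided permutation p = 0.341, adjusted over 6 tests 0.512). From vehicle to 1 mg/kg it moved by -0.14 (exact p = 0.849), and from 1 to 5 mg/kg by -0.56 (exact p = 0.310). An unequal change of these kinase probe sets was thus not detected with 5 mice per group, where the smallest p possible is 0.00794. Other tested sets of the same genes correlated with these at r from 0.096 to 0.23 over the 15 arrays.

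Ccnd2 encodes cyclin D2, an early cyclin of B-cell activation. Its probe set 1430127_a_at gave 140.0, 159.4, 114.8, 123.1 and 140.5 with vehicle, 112.8, 157.9, 125.7, 113.1 and 118.3 at 1 mg/kg, and 115.0, 154.7, 101.5, 129.0 and 150.3 at 5 mg/kg. The groups overlapped almost fully, and the difference at 5 mg/kg was -0.068 ± 0.18 (95% interval -0.44 to 0.31, limma adjusted p = 0.970). Probe sets 1434745_at, 1416122_at and 1455956_x_at differed by -0.032, -0.14 and 0.04 at 5 mg/kg. At 1 mg/kg they differed by -0.17, -0.22 and -0.011.

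The remaining Ccnd2 set, 1448229_s_at, was the only one of the 16 whose groups did not overlap in any comparison with vehicle. It gave 46.5, 62.3, 46.0, 44.6 and 44.3 with vehicle and 29.0, 42.0, 43.5, 41.9 and 30.3 at 1 mg/kg, so every 1 mg/kg mouse was under every vehicle mouse, as for 0.676% of all tested probe sets. The difference was -0.39 ± 0.20 (95% interval -0.81 to 0.024) and did not pass (limma adjusted p = 0.871). At 5 mg/kg the same set gave 37.7, 56.2, 32.5, 47.0 and 42.0, and the groups overlapped (-0.19 ± 0.20). The other 4 tested Ccnd2 sets were not apart at 1 mg/kg. Over 15 arrays 1434745_at and 1416122_at followed each other (r 0.85), as did 1430127_a_at and 1448229_s_at (r 0.69), and 1455956_x_at correlated with the other 4 at -0.22 to 0.45.

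Ccnd3 encodes cyclin D3, the D cyclin known for its part in lymphocyte and red cell precursors. Its probe set 1415907_at gave 305.4, 388.2, 375.8, 507.5 and 624.4 with vehicle, 444.7, 450.4, 508.9, 291.8 and 386.3 at 1 mg/kg, and 489.9, 491.4, 568.1, 511.5 and 492.3 at 5 mg/kg. All 5 mice at 5 mg/kg were above the vehicle median of 388.2, with an SD of 0.091 against 0.40, but the vehicle range reached above them. The difference was 0.26 ± 0.21 at 5 mg/kg (95% interval -0.19 to 0.70, limma adjusted p = 0.837) and -0.059 ± 0.21 at 1 mg/kg.

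A second Ccnd3 set, 1438805_at, gave 30.4, 63.7, 37.4, 44.6 and 26.1 with vehicle, 30.7, 42.5, 56.5, 47.1 and 39.6 at 1 mg/kg, and 60.1, 38.9, 51.3, 66.6 and 80.3 at 5 mg/kg. It was the 1 probe set of the 16 with an unadjusted p under 0.05, at 0.59 ± 0.26 (1.50-fold, 95% interval 0.029 to 1.14). All 5 mice at 5 mg/kg were above the vehicle median of 37.4, yet vehicle replicate 2 exceeded 3 of them. It did not pass over all probe sets (limma adjusted p = 0.590). The 2 Ccnd3 sets were both higher at 5 mg/kg but correlated at only 0.14 over 15 arrays and at -0.13 within groups. The B-cell marker mean was also higher at 5 mg/kg than with vehicle (7.45 ± 0.35 against 6.79 ± 0.43), as was the T-cell marker mean (7.63 ± 0.41 against 7.17 ± 0.27), and their part in the Ccnd3 values was not tested.

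**Figure D4:**
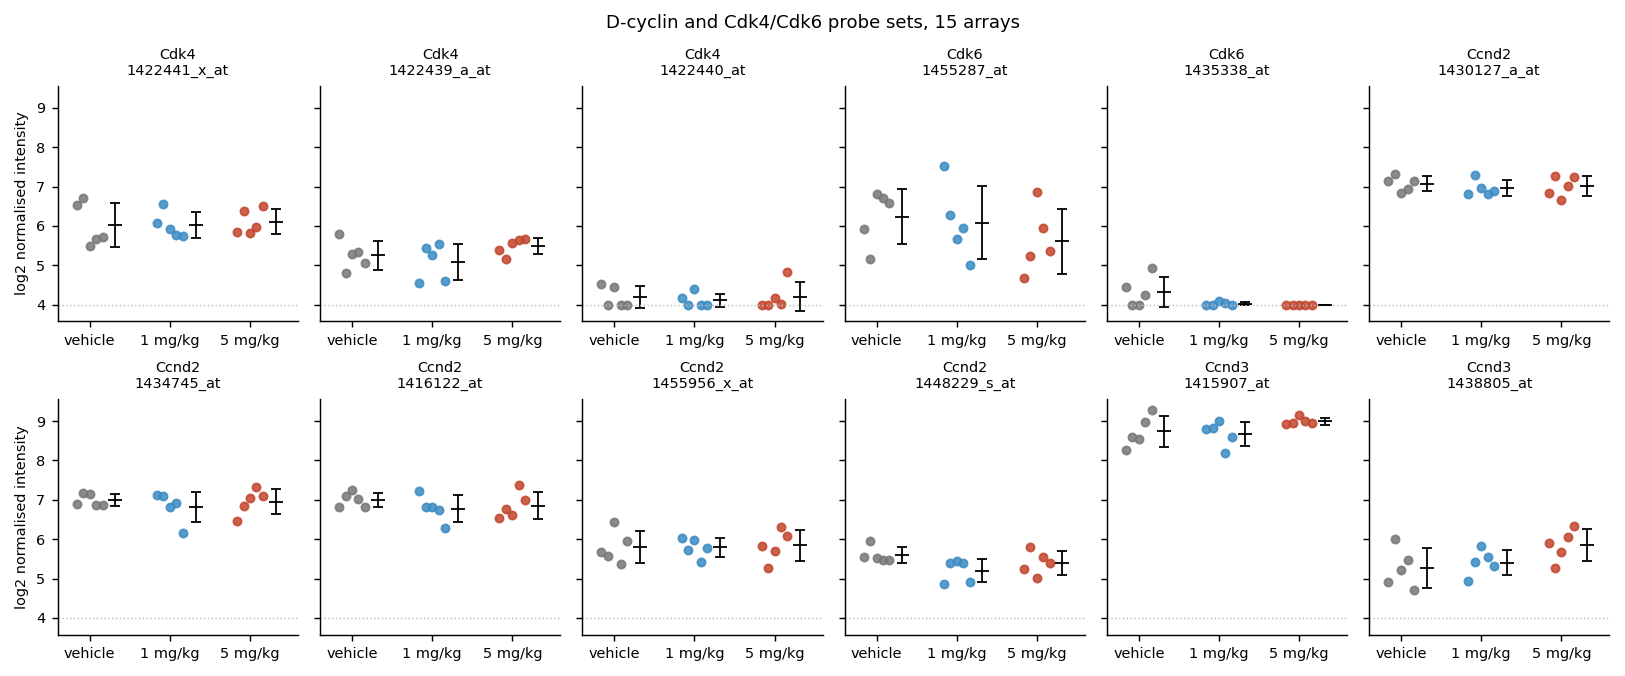
Log2 normalised intensity (vertical axis) of the 12 tested Cdk4, Cdk6, Ccnd2 and Ccnd3 probe sets in each array by dose group, with 1 point per mouse, a bar for the mean and whiskers of 1 SD; the dotted line is the floor. Groups overlap in every panel except Ccnd2 1448229_s_at at 1 mg/kg, and Cdk6 1435338_at sits on the floor in all 5 mice at 5 mg/kg.

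Within arrays, the log2 value of Ccnd3 1415907_at minus that of Ccnd2 1430127_a_at moved by 0.33 (SE 0.25) from vehicle to 5 mg/kg (exact two-sided permutation p = 0.254, adjusted over 6 tests 0.512). It moved by 0.054 at 1 mg/kg against vehicle (exact p = 0.817) and by 0.27 between the doses (exact p = 0.190). An unequal change of these D-cyclin probe sets was not detected either.

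By likeness over the 15 arrays, the 3 genes with the highest r differed between the members. Each such r is the highest of many, and no background for such maxima was worked out. The 3 nearest to Sertad2 1417209_at were Rab2b, Bach2 and Orly (r 0.86, 0.86 and 0.86), and those nearest to Sertad3 1421076_at were Ednrb, Tmem217 and Prpf19 (0.90, 0.87 and 0.85). Cdk4 1422441_x_at was nearest to Pogz, Nr4a2 and Gmnn (0.82, 0.82 and 0.80), and Cdk6 1455287_at to Oog4, Ubac2 and Adgrb1 (0.88, 0.86 and 0.86). Ccnd2 1430127_a_at was nearest to Ralgapa1, Mphosph10 and Zfp982 (0.84, 0.79 and 0.79), and Ccnd3 1415907_at to Trem3, Sh3bgrl2 and Mapkapk2 (0.79, 0.77 and 0.76). These r values were about as high within dose groups, from 0.69 to 0.94, so they describe variation between mice of the same dose. For Sertad3 1421076_at that variation includes vehicle replicate 1, which stood far above the other vehicle mice. Sertad1 was chosen by its difference between dosed and vehicle mice, so its lower r within groups is no contrast with these members.

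The rest of the pathway was read from 6 lists of genes, each gene by its probe set of highest mean. In all 6 lists limma called 0 genes higher and 0 lower in each of the 3 comparisons, where 0.136% of all probe sets were called at 5 mg/kg against vehicle, 0.00824% at 1 mg/kg and 0% between the doses. At 5 mg/kg against vehicle, 1 of 10 tested SERTA-domain relatives and SERTAD1 partners had an unadjusted p under 0.05, as did 1 of 10 other cyclins and kinases, 0 of 6 CDK inhibitors, 2 of 13 retinoblastoma-family and E2F genes, 1 of 15 E2F targets of S phase entry and 2 of 14 regulators of D-cyclin turnover. In the same order of lists, 1, 1, 0, 0, 1 and 3 genes had an unadjusted p under 0.05 at 1 mg/kg against vehicle, and 1, 0, 0, 1, 1 and 1 between the doses. The shares over all probe sets were 7.96%, 5.8% and 8.66% in these 3 comparisons. List medians at 5 mg/kg against vehicle lay between -0.11 and 0.16.

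Among the SERTAD1 partners, Ppp2r2a (a regulatory subunit of protein phosphatase 2A) was 0.47 ± 0.22 above vehicle at 5 mg/kg, but only 1 of 5 vehicle mice was above the floor. Tfdp2, a DP partner of E2F, differed by -0.29 ± 0.29, and by -0.59 to -0.23 in its other tested probe sets. Trim28, a co-repressor, differed by 0.25 ± 0.20 in 1 probe set and by 0.43 ± 0.21 in the other. Of the cyclins and kinases, Ccnd1 (cyclin D1) differed by 0.46 ± 0.26 in 1 probe set and by 0.015 ± 0.22 and 0.51 ± 0.50 in its other 2, Cdk2 by 0.53 ± 0.44 and Cdc25b, the phosphatase that activates CDK1, by -0.61 ± 0.25. By the probe set of highest mean none of these genes passed, with limma adjusted p-values from 0.530 to 0.877.

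Among the CDK inhibitors, Cdkn1b (p27) differed by 0.30, Cdkn2b (p15) by -0.46 and Cdkn2d (p19) by -0.81 ± 0.46. Of the retinoblastoma and E2F genes, Rbl2 (p130) differed by 0.44 ± 0.20, Lin54 (a subunit of the DREAM complex) by -0.79 ± 0.36 and E2f3 by -0.55 ± 0.35. None passed, with limma adjusted p-values from 0.600 to 0.896.

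The differences with the smallest p-values in the lists were those of Pcna, the DNA polymerase clamp, and Hsp90aa1, the chaperone that with CDC37 stabilises CDK4. Pcna was 0.89 ± 0.19 (1.85-fold) above vehicle at the higher dose and 0.26 ± 0.19 at the lower, with all 5 mice at 5 mg/kg above every vehicle mouse, and did not pass (limma adjusted p = 0.107). It did pass with a floor of 32 (adjusted p = 0.0422) and with array weights (0.0441), within a range up to 1.04 over all choices. Hsp90aa1 was 0.85 ± 0.20 (1.80-fold) above vehicle at the higher dose and 0.71 ± 0.20 at the lower, also without overlap at 5 mg/kg (limma adjusted p = 0.158), and passed with array weights alone (0.0441). Of its other 4 tested probe sets, 3 differed by 0.59 to 0.85 and 1433251_at by -0.056.

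Of the 15 tested E2F targets, Pcna included, 7 were higher at 5 mg/kg and 8 lower, with a median of -0.066. Cdt1, a replication licensing factor, differed by 0.34 ± 0.26. Gins2, a subunit of the replicative helicase, differed by -0.77 ± 0.51, with 2 of 5 mice above the floor in both groups, and by 1.02 with 18S signal as a covariate. Among the D-cyclin regulators, Myc differed by -0.94 ± 0.36 (limma adjusted p = 0.459), with 2 of 5 mice above the floor at 5 mg/kg. At 1 mg/kg Myc differed by -0.90 ± 0.36 (limma adjusted p = 0.831). Fbxo31, an F-box protein for cyclin D1, differed by 0.72 ± 0.35 in 1 probe set and by -0.33 ± 0.21 in the other. At 1 mg/kg these sets differed by 1.17 ± 0.35 (limma adjusted p = 0.672) and by -0.16. The first set was above the floor in only 2 of 5 vehicle mice.

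**Figure D5:**
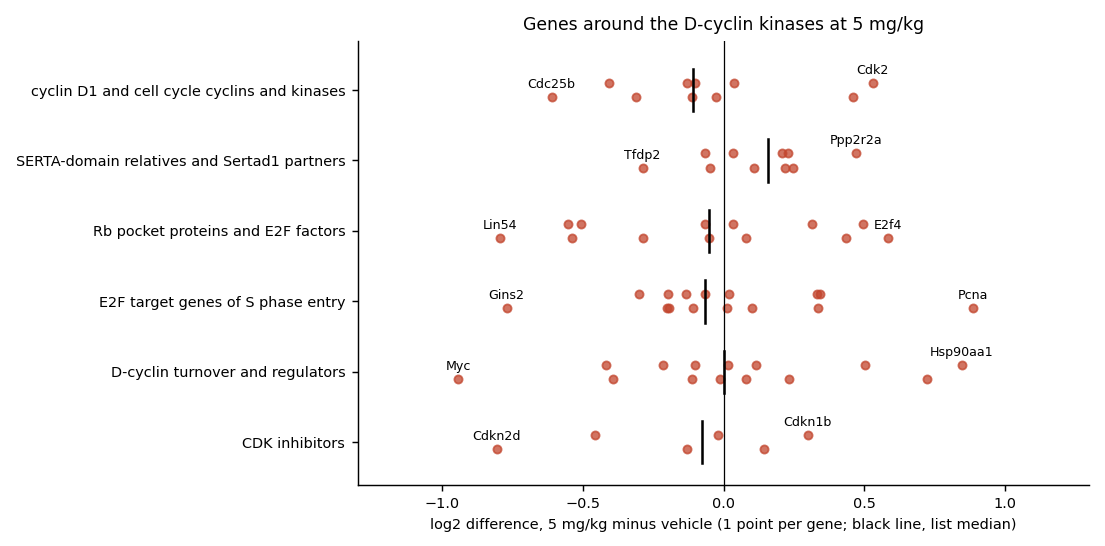
Log2 difference between 5 mg/kg and vehicle (horizontal axis) for the tested genes of 6 lists (rows), with 1 point per gene, a black line at each list's median and the outermost genes named. List medians lie between -0.11 and 0.16, and Pcna at 0.89 and Myc at -0.94 mark the ends.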

How the data were processed

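Per the labels' protocols, whole-blood total RNA was purified (Qiazol, RNeasy) and amplified to biotinylated cRNA (Affymetrix 3' IVT Plus) for 15 arrays. The deposited values are linear intensities for 45101 probe sets, some below 0, and were not scaled between arrays; the summarisation software is not given in the sources used here. Quantile normalisation over 45037 probe sets (64 control sets left out), a floor of 16 and log2 followed. Probe sets above the floor on at least 5 of 15 arrays (24273) were tested with limma (version 3.58.1, R 4.3.3; eBayes after lmFit on group means of all 15 arrays, 12 residual degrees of freedom), with Benjamini-Hochberg adjustment over all of them at 0.05. Genes were named from the platform annotation, which can be old, and probe sets ending in _x_at or _s_at can match related transcripts. The number of arrays limits the precision: the median standard error was 0.28. The test was checked on simulated data. Exact permutation tests compared 2 within-array pairs. The rule for named genes took every member probe set, of each pathway list any gene past the threshold and up to 3 with the smallest unadjusted p at 5 mg/kg, and the 5 genes most like Sertad1 and 3 most like each other member by Pearson r. The members and lists were chosen with earlier results of these data known. Alternatives covered scaling, floor, filter, unit tested, variance model, array weights, an 18S covariate, the groups in the fit, a replicate block and leaving out each array. The Ccnd2 promoter was not analysed here.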

Additional observations from a re-analysis of the deposited data

Results flagged for a closer look

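Of 51 groups of 5 mice checked (17 tested probe sets at 3 doses), 5 held 1 mouse far from the other 4. Chance would mark about 1 group in 20, but that rate need not hold where values sit at the floor. Cdk6 1435338_at at 5 mg/kg was at the floor in all 5 mice and could not be marked. Vehicle replicate 1 was low for Sertad2 1454815_at (log2 5.40, the others 5.97 to 6.04) and high for Sertad3 1421076_at (7.95, the others 5.12 to 5.94). At 1 mg/kg, replicate 5 was at the floor for Sertad3 1421077_at (4, the others 5.24 to 5.50). At 5 mg/kg, replicate 5 was above the others for Cdk4 1422440_at (4.84, the others 4 to 4.17), a probe set near the floor. Vehicle replicate 2 was high for Ccnd2 1448229_s_at (5.96, the others 5.47 to 5.54). Without it that probe set differed from vehicle by -0.30 at 1 mg/kg, against -0.39 with all mice. No Sertad1 group was among the 5.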

How the results depend on the processing

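Under the 13 alternatives and the 15 fits that each left out 1 array, 0 of the 16 tested probe sets other than that of Sertad1 passed in any of the 3 comparisons, wherever they could be tested. Over all probe sets the count at 5 mg/kg against vehicle was 33 and ran from 0 with 18S signal as a covariate to 95 with array weights, with 4 without scaling, 73 with a floor of 32, 11 with 1 probe set per gene and 15 to 41 when an array was left out. At 1 mg/kg it ran from 0 to 10. The 18S signal did not overlap between vehicle and 5 mg/kg mice, so the fit with that covariate cannot separate it from the higher dose. Without scaling the median of all probe sets at 5 mg/kg moved from -0.0066 to 0.12. Sertad1 at 5 mg/kg was 2.12 with a floor of 32, 2.07 with 16 added in place of a floor and 2.03 with the 18S covariate, and at 1 mg/kg 0.67 with a floor of 32. The sample titles number the mice in each group without saying whether equal numbers mark pairs, and the main fit did not pair them. Same-numbered mice deviated together at r from -0.27 to 0.32, and 4 of 15 arrays correlated best with their own number. These values cannot settle whether the numbers pair the samples. With the replicate block 28 probe sets passed at 5 mg/kg and 0 of the 16.

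Signs turned at 5 mg/kg against vehicle as follows, and the cause was not tested. Turns with the 18S covariate have the limit given above. Without scaling Ccnd2 1430127_a_at was 0.065 and 1434745_at 0.10. With the 18S covariate Ccnd2 1430127_a_at was 0.030, 1455956_x_at -0.32 and 1448229_s_at 0.073, Sertad2 1454815_at -0.045, Sertad3 1421076_at 0.043 and 1421077_at 0.79, Ccnd3 1415907_at -0.38 and Gins2 1.02. Leaving out each array in turn gave ranges that span 0 for Cdk4 1422440_at (-0.15 to 0.090) and 1422441_x_at (-0.052 to 0.26), Ccnd2 1430127_a_at (-0.14 to 0.017), 1434745_at (-0.12 to 0.093) and 1455956_x_at (-0.077 to 0.20), Sertad2 1454815_at (-0.091 to 0.069), and Sertad3 1421076_at (-0.65 to 0.055) and 1421077_at (-0.45 to 0.081). At 1 mg/kg the within-array values spanned -0.58 to 0.13 for Cdk6 minus Cdk4 and -0.080 to 0.18 for Ccnd3 minus Ccnd2. Probe sets near the floor (Cdk6 1435338_at, Cdk4 1422440_at) can show little of any change.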

Other observations

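The protein-coding genes around Sertad1 and Sertad3 on chromosome 7, by RefSeq order, gave the following values at 5 mg/kg against vehicle. Blvrb, which encodes biliverdin reductase B and lies next beyond Sertad3, differed by -0.48 ± 0.37 (SE). Sptbn4, a spectrin gene beyond it, differed by -0.66 ± 0.63, and by 1.13 at 1 mg/kg. Shkbp1, the next gene, differed by -0.47 ± 0.26. None passed (limma adjusted p from 0.713 to 0.871). On the other side of Sertad1, Pld3 was not above the floor often enough to be tested, and Prx and Hipk4 had no probe set annotated with 1 gene alone.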
